A study of Caenorhabditis elegans with 27 samples.

Results

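The small RNAs (sRNAs) of pup-1/-2(om129) double mutants were compared with those of wild type, the Caenorhabditis elegans strain N2. All sRNAs of the deposited table of total counts were taken, in the 3 libraries labelled pup-1/-2(om129) and the 6 labelled N2, which are 9 of the 27 libraries sequenced. The table lists 20150 sRNAs, of which 9849 were piRNAs and 236 miRNAs by the annotation. The other 10062 annotated genes were classed as siRNAs here, and 3 IDs had no class because they were not found in the annotation. Of the 20150, 9645 had enough counts to be tested, namely 7184 siRNAs, 2302 piRNAs, 157 miRNAs and 2 without a class.

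The om129 allele lies on linkage group III and affects both pup-1 and pup-2, and the study treats it as a null mutation. It was kept over a balancer chromosome, so the worms sequenced were second-generation homozygotes without maternal or zygotic product of either gene. They and the N2 worms were 1-day adult hermaphrodites raised at 22°C, and RNA came from whole animals, soma and germline together. No other pup gene was mutated in these animals, and the double mutant is represented by this 1 allele. Set beside them where a result called for it were pup-1(tm1021) and pup-2(tm4344) single mutants, a triple mutant that also carries pup-3(tm5089), and a quadruple mutant with pup-3(tm5089) and pup-4(om141), 3 libraries each. The study's methods describe the libraries of each genotype as independent biological replicates, and p-values measure the spread between them. For its uridylation filter the study set each mutant beside only 3 wild-type replicates, which were run in parallel with it. The labels do not say which N2 libraries those were, and all 6 were pooled here.

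PUP-1 (also CDE-1 or CID-1) and PUP-2 are terminal nucleotidyltransferases that add uridine to the 3′ ends of RNA. PUP-1 acts on the 22G siRNAs that RNA-directed RNA polymerases copy from germline mRNAs and that Argonaute proteins carry, and PUP-2 is known for tailing the precursor of the let-7 miRNA when bound by LIN-28. An siRNA count here is the sum, over 1 gene, of the reads that map opposite to its coding strand within coding sequence. It measures the siRNAs made against a transcript and not the expression of that gene. Reads were counted whatever their 3′ tail, and uridylation itself was not analysed here. In whole animals, fewer cells of a type and less RNA per cell cannot be told apart.

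Between 5406558 and 7429475 reads were counted in the pup-1/-2(om129) libraries, against 2054529 to 12560105 in N2. Levels are given in CPM, which are counts relative to library size, with library sizes scaled by edgeR's TMM method. A single library of each genotype stood apart. The siRNA share of counts was 77.1, 50 and 51.1% in pup-1/-2(om129) replicates 1, 2 and 3, against a lowest, median and highest value of 53, 67 and 77.1% in N2. The miRNA share was 19.7, 47.4 and 46%, against 20.2, 30.3 and 41.2% in N2. Replicate 1 of the mutant thus lay at the opposite end of the N2 range from replicates 2 and 3. Across the tested sRNAs it correlated at 0.89 and 0.901 with replicates 2 and 3, which correlated at 0.951 with each other. Replicate 1 of N2, the shallowest of the 9 libraries, correlated at 0.773 to 0.833 with the other N2 libraries, which correlated at 0.921 to 0.978 among themselves. Its piRNA share was 5.72%, against 2.18 to 3.08% in the other N2 libraries and 3.12, 2.59 and 2.86% in pup-1/-2(om129).

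The differences in class shares lay within the spread between libraries. The siRNA share averaged 59.4 ± 15.4% (SD, n = 3) in pup-1/-2(om129) and 65.8 ± 7.9% (SD, n = 6) in N2, a difference of -6.38 percentage points (two-sided exact permutation test over 84 splits, p = 0.405, adjusted p = 0.607 over the 3 classes). The miRNA share averaged 37.7 ± 15.6% (SD, n = 3) in pup-1/-2(om129) and 31 ± 7% (SD, n = 6) in N2, a difference of 6.69 points (exact permutation test, p = 0.405, adjusted p = 0.607), and the piRNA share differed by -0.289 points (exact permutation test, p = 0.893). No p under 0.0119 can be reached with 3 libraries against 6. Without replicate 1 of the mutant the siRNA and miRNA shares differed by -15.2 and 15.7 points, each at the smallest p the remaining 28 splits allow (exact permutation test, p = 0.0357, adjusted p = 0.0536).

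**Figure D1:**
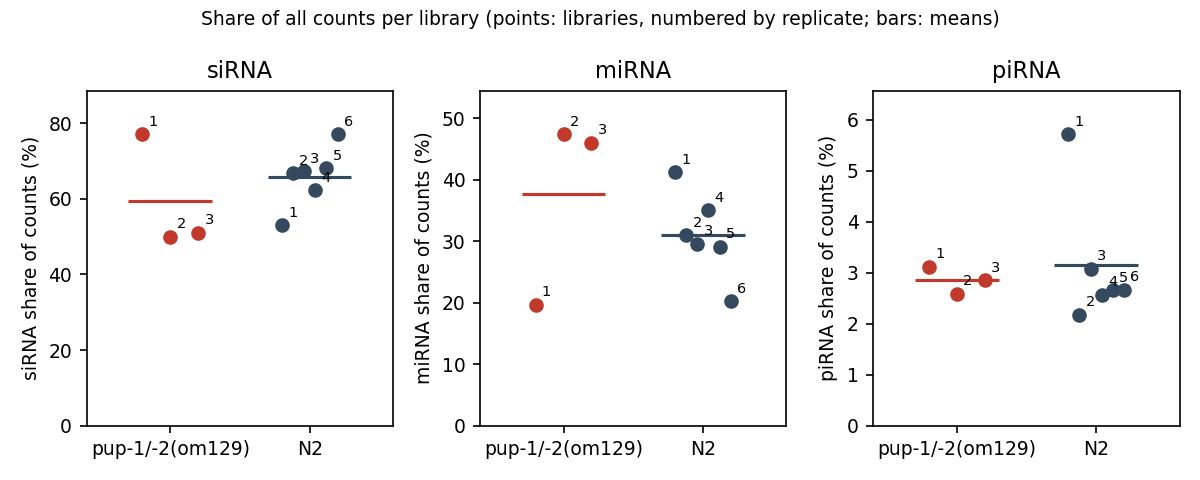
Share of all counts taken by siRNAs, miRNAs and piRNAs (%, y axis) in each pup-1/-2(om129) and N2 library (points, numbered by replicate), with the mean of each genotype as a bar. Mutant replicates 2 and 3 held 50 and 51.1% siRNAs and replicate 1 held 77.1%, and N2 replicate 1 held the highest piRNA share, 5.72%.

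Loss of both genes was accompanied by changes in 2039 of the 9645 tested sRNAs, which is 21.1%. A sRNA is called differentially abundant (DA) at an absolute log2 fold change over 1 and a Benjamini-Hochberg adjusted p under 0.05 from edgeR's quasi-likelihood test, fitted to all libraries. Of the DA sRNAs, 834 were higher and 1205 lower in pup-1/-2(om129). Most of them were siRNAs, 731 of which were higher (10.2% of tested siRNAs) and 1149 lower (16.0%). At more than a 4-fold difference, 293 siRNAs were higher and 473 lower. The median log2 fold change over all tested sRNAs was -0.12. Without mutant replicate 1 there were 2379 DA sRNAs (1007 higher, 1372 lower). Without N2 replicate 1 there were 2685, and the split turned, with 1363 higher and 1322 lower.

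The double mutant libraries did not overlap the N2 range for 2229 of the tested sRNAs (23.1%). Among DA sRNAs this held for 524 of the higher and 789 of the lower ones, and 1273 of these 1313 were siRNAs. All 3 mutant libraries contributed to the siRNA calls. Of the 731 siRNAs called higher, 541, 686 and 686 exceeded every N2 library in replicates 1, 2 and 3, and of the 1149 called lower, 886, 938 and 955 lay below every N2 library. Relative to the N2 mean, the median log2 level of the siRNAs called higher was 1.32, 1.57 and 1.52 in replicates 1, 2 and 3, and that of the siRNAs called lower was -1.25, -1.41 and -1.38.

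The largest falls and rises are given for DA siRNAs whose mutant libraries all lay outside the N2 range and that averaged at least 10 CPM in the higher genotype. The falls were low in all 3 mutant libraries. Y57A10C.10 (WBGene00013288; chromosome II of WBcel235, 12440132 to 12441264) had siRNAs at 1.82, 1.48 and 1.35 CPM in pup-1/-2(om129), against a lowest, median and highest level of 13.4, 105.8 and 152.6 CPM in N2. The log2 fold change was -6.01 (standard error 0.59, edgeR adjusted p = 7.4e-08). The siRNAs of F20D6.10 (WBGene00017639; chromosome V, 8192060 to 8195939) stood at 2.65, 1.48 and 1.52 CPM in the mutant, against 7.76, 67.4 and 112.8 CPM in N2, a log2 fold change of -5.13. No mutant library reached the lowest N2 library for either gene.

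The siRNAs of lag-2, which encodes the Notch ligand that maintains germline stem cells, fell by 4.95 on the log2 scale (WBGene00002246; chromosome V, 3188343 to 3190115; edgeR adjusted p = 7.4e-08). They stood at 6.29, 2.96 and 3.88 CPM in pup-1/-2(om129), against 26.8, 147.0 and 197.0 CPM in N2 (lowest, median and highest). In the triple mutant, which also carries om129, the siRNAs of lag-2 stood within the N2 range, at 46.7 to 82.7 CPM. In the quadruple mutant they stood at 4.46 to 6.52 CPM. Those of npr-11, a neuropeptide receptor gene (WBGene00016110; chromosome X, 1251815 to 1255647), stood at 6.13, 4.65 and 2.53 CPM in the mutant, against 14.8, 134.5 and 219.3 CPM in N2, a log2 fold change of -4.87. For both genes the mutant libraries lay below all N2 libraries, although N2 replicate 1 was far below the other 5. The remaining large falls were those of F31E9.6 (log2 fold change -4.59), C35E7.11 (-4.47), R06C1.4 (-4.46) and T01D3.1 (-4.40). Against R06C1.4 (WBGene00011059; chromosome I, 11930765 to 11931757), siRNAs stood at 21.9, 28.3 and 24.4 CPM in pup-1/-2(om129), against 269.9, 343.9 and 1652 CPM in N2, where replicate 1 held the highest value. All 8 of these falls kept their call under each of the alternatives run. Except for lag-2 in the triple mutant, the triple and quadruple libraries also lay below all N2 libraries for each of them.

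The largest rises by the same rule were siRNAs at low levels in N2 and uneven among the mutant libraries. Those of T05A8.1 (WBGene00020227; chromosome II, 2708438 to 2710042) stood at 2.32, 51.5 and 37.9 CPM in pup-1/-2(om129), against 0, 0.0365 and 0.293 CPM in N2. Those of ddn-1 (WBGene00015227; chromosome V, 8758820 to 8760516) stood at 0.993, 29.2 and 30.8 CPM, against 0, 0.0365 and 0.148 CPM in N2. Replicates 2 and 3 of the mutant were far above replicate 1 for both, and replicate 1 was still above all N2 libraries. The fitted log2 fold changes were 8.11 for T05A8.1 and 7.57 for ddn-1 (edgeR adjusted p = 5.6e-08 and 1.6e-07), but only 4 reads were counted in the 6 N2 libraries together for each gene, against 483 and 327 reads in the mutant, so that the fold depends on the prior count of the fit.

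The siRNAs of eol-1 (WBGene00045401; chromosome V, 13979462 to 13980907), whose product belongs to the DXO family of RNA decapping enzymes, stood at 8.44, 50.3 and 59.8 CPM in pup-1/-2(om129), against 0, 0.408 and 1.03 CPM in N2. Their log2 fold change was 6.48 (standard error 0.59, edgeR adjusted p = 2.1e-08). T04A8.13 (WBGene00011414; chromosome III, 4706978 to 4708439) had 13.2, 231.7 and 164.7 CPM in the mutant, against 1.71, 2.36 and 4.11 CPM in N2, a log2 fold change of 5.76. The other rises chosen by the same rule were those of pals-37 (log2 fold change 6.40), ZK177.9 (6.31), pals-30 (5.46) and R10E4.6 (5.26). In each of the 8 rises replicate 1 was the lowest mutant library, and all 8 kept their call without it. Triple and quadruple libraries, which also carry om129, lay above all N2 libraries for T05A8.1, ddn-1, eol-1, pals-37, ZK177.9 and pals-30. They stayed below double mutant replicates 2 and 3. Levels of R10E4.6 were 0.67 to 1.89 CPM in the triple and 1.18 to 1.49 CPM in the quadruple mutant. Its N2 range was 0.445 to 1.56 CPM. T04A8.13 stood at 1.78 to 2.69 CPM in the quadruple mutant, within the N2 range, and overlapped that range in the triple mutant. ZK177.9 overlaps ZK177.3, ddn-1 the piRNA gene 21ur-14767, pals-30 a pair of piRNA genes, and R10E4.6 the genes nth-1 and R10E4.7.

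**Figure D2:**
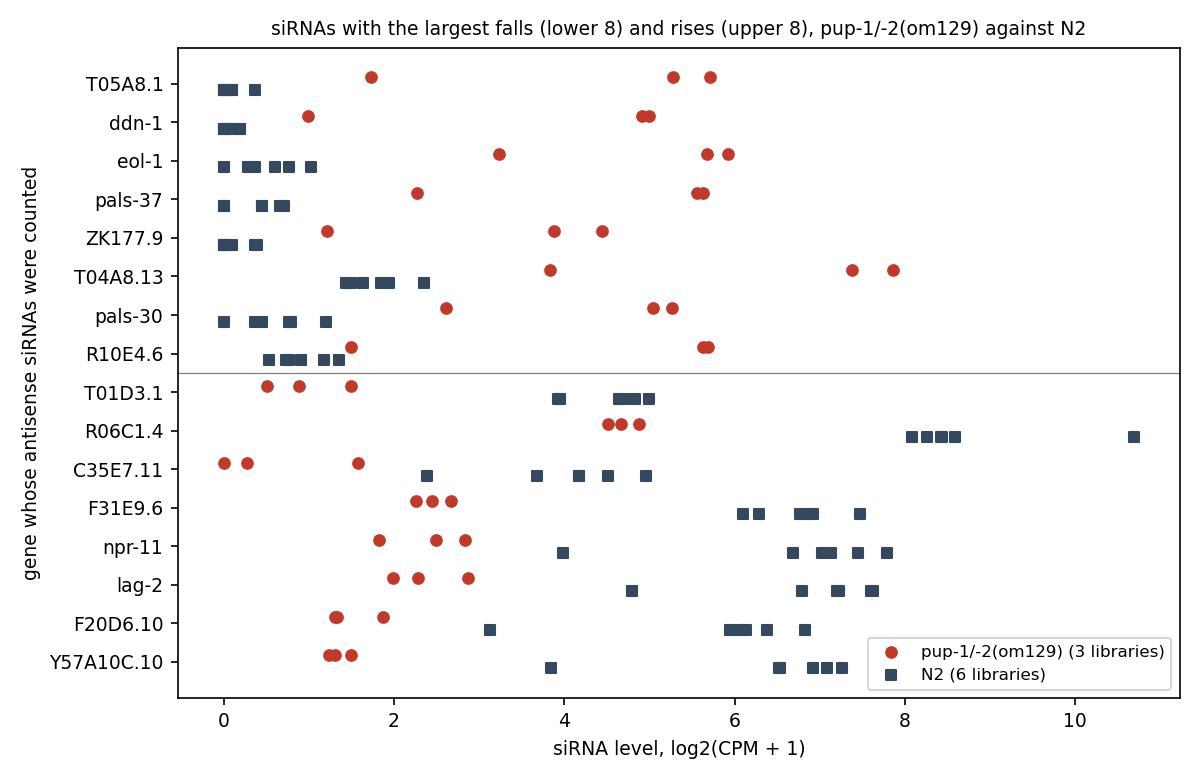
Levels of the siRNAs with the 8 largest rises (upper rows) and 8 largest falls (lower rows) in pup-1/-2(om129), as log2(CPM + 1) (x axis) in each mutant library (circles) and each N2 library (squares). Mutant libraries cluster at low levels for the falls and are spread for the rises, where replicate 1 is the lowest of the 3.

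The pals genes encode proteins with an ALS2CR12 signature, and several are known in C. elegans for controlling the response to intracellular infection. As 2 of them were among the largest rises, the family was listed after its values were seen. Of 13 tested members (21 listed), 3 were higher and 5 lower, with a median log2 fold change of -0.72. These are 23.1 and 38.5%, against 10.2 and 16.0% of all siRNAs. The siRNAs of pals-1 also rose, to 127.3, 185.0 and 169.9 CPM in pup-1/-2(om129), against 26, 42 and 73.3 CPM in N2 (log2 fold change 1.85). Those of pals-22, a repressor of that response, fell to 216.4, 170.5 and 135.5 CPM in the mutant, against 406.9, 486.0 and 755.5 CPM in N2 (log2 fold change -1.59, edgeR adjusted p = 4.6e-07). Those of pals-25, which acts against pals-22, fell with a log2 fold change of -1.97. For these 3 genes mutant and N2 libraries did not overlap.

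Among the nucleotidyltransferase genes themselves, 7 were tested, and siRNAs fell for 2 (28.6%, against 16.0% of all siRNAs) and rose for 0. The median log2 fold change was -0.02, against -0.12 over all siRNAs. The siRNAs of pup-3, the paralogue left intact in the double mutant (WBGene00019082; chromosome I, 5530614 to 5534649), stood at 10.1, 15.8 and 11.5 CPM in pup-1/-2(om129), against 34.5, 51.5 and 87 CPM in N2. The log2 fold change was -2.23 (standard error 0.25, edgeR adjusted p = 2.9e-07). Those of pap-2, a poly(A) polymerase gene, stood at 29.1, 24.3 and 22.6 CPM in the mutant, against 36.7, 64.1 and 103.9 CPM in N2 (log2 fold change -1.39), and were not called with a replicate block. The siRNAs of pup-1 (cid-1 in the annotation, WBGene00019629; chromosome III, 5173922 to 5180507) were still counted, at 932.6, 775.3 and 782.5 CPM in pup-1/-2(om129), against 954.0, 1186 and 1559 CPM in N2. Their log2 fold change was -0.55 (edgeR adjusted p = 0.001), which is short of the fold for DA although the libraries did not overlap. Reads against pup-1 thus remained in the mutant. Because counts are summed over the whole gene, they do not show which part of it om129 lacks. The siRNAs of pup-2 are not analysed here. The siRNAs of gld-2, a cytoplasmic poly(A) polymerase gene, had a log2 fold change of 0.83, also short of DA.

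Argonaute proteins bind sRNAs and carry them to their targets. The siRNAs of 6 of 12 tested Argonaute genes rose and those of 0 fell, with a median log2 fold change of 1.32, which is 50% higher against 10.2% of all siRNAs. The count was 3 of 8 tested with a minimum count of 50 or 10 CPM (medians 0.78 and 0.77). It was 3 of 11 with the 9 libraries alone, 3 of 12 with N2 replicates 1 to 3 or a replicate block, and 5 to 7 under the others. The miRNA-binding Argonautes alg-1 and alg-2 were among the 6 of the main fit. The siRNAs of alg-1 stood at 48, 71.4 and 79.6 CPM in pup-1/-2(om129), against 8.46, 16.6 and 29.6 CPM in N2 (log2 fold change 1.88, edgeR adjusted p = 2e-06). Those of alg-2 stood at 78.8, 86.8 and 92.9 CPM, against 15.1, 28.6 and 45.3 CPM in N2 (log2 fold change 1.52). Those of alg-5, a germline miRNA Argonaute, stood at 261.6, 156.5 and 158.1 CPM, against 73.5, 79.6 and 91.6 CPM in N2 (log2 fold change 1.24). No mutant library overlapped N2 for these 3 genes. Without mutant replicate 1, the highest for alg-5, its log2 fold change was 0.95 and it was no longer DA.

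The other 3 rises were those of alg-3, alg-4 and wago-10, with log2 fold changes of 3.89, 3.76 and 3.10. ALG-3 and ALG-4 act in spermatogenesis in C. elegans. These siRNAs were near 0 in most N2 libraries (medians of 0.11, 0.0734 and 0.109 CPM), and the highest N2 library overlapped the lowest mutant library for each. The alg-3 and alg-4 genes are close copies, and reads that both share may be assigned to either. The siRNAs of csr-1 and prg-1, which encode the Argonautes of germline 22G siRNAs and of piRNAs, did not pass the test (log2 fold changes 0.30 and -0.33). The summed level of the Argonaute siRNAs was 2115, 1833 and 1821 CPM in pup-1/-2(om129), against 1398, 1770 and 2051 CPM in N2, and the groups overlapped.

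Among 21 genes of RNA-directed RNA polymerases, mutator proteins, Dicer partners and systemic RNAi, siRNAs rose for 5 and fell for 1 (median log2 fold change 0.29). These are 23.8% higher and 4.76% lower, against 10.2 and 16.0% of all siRNAs. Those of rrf-3, the polymerase that primes 26G siRNAs, stood at 1276, 1113 and 1110 CPM in pup-1/-2(om129), against 428.2, 609.5 and 640.4 CPM in N2. The log2 fold change was 1.01 (edgeR adjusted p = 2.4e-07), and under 8 of the 21 alternatives, among them those without mutant replicate 1 and without N2 replicate 1 or 4, it was under 1 and the siRNAs were no longer DA. Those of rsd-2 and rsd-6, which act together in the response to double-stranded RNA, had log2 fold changes of 1.19 and 1.44, and their mutant libraries lay above all N2 libraries. The siRNAs of rsd-2 stood at 218.7, 184.4 and 180.5 CPM in the mutant, against 75.1, 86.6 and 92.4 CPM in N2. The siRNAs of sid-3 and sid-5 rose by 1.38 and 2.12, and those of eri-6, a helicase gene of the 26G pathway, fell by 1.06, with mutant and N2 libraries overlapping for sid-5 and eri-6. The eri-6 call, the only fall in this list, held under 8 of 20 alternatives and was lost by DESeq2 and without N2 replicate 1, 4 or 6 or mutant replicate 1 or 2. The summed level of this list was 4762, 3926 and 3825 CPM in the mutant, against 2853, 3057 and 3182 CPM in N2, without overlap.

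Germline lists are set beside the 10.2% higher and 16.0% lower of all siRNAs. Of 13 P granule genes, which encode components of the germline RNA granules, siRNAs rose for 2 (15.4%) and fell for 0 (median -0.06). Those of meg-2 stood at 45.5, 40.8 and 43.3 CPM in pup-1/-2(om129), against 6.35, 9.81 and 13.4 CPM in N2, a log2 fold change of 2.09 (edgeR adjusted p = 2e-08), and those of the neighbouring meg-1 had a log2 fold change of 1.01, with overlapping libraries. The meg-1 call was lost under 8 of 21 alternatives, among them those without N2 replicate 1 or 4 or mutant replicate 1, at log2 fold changes down to 0.54. Of 20 tested genes of oogenesis and germline RNA regulation, siRNAs rose for 0 and fell for 2 (10%, median 0.06), and the falls were 1 without mutant replicate 2. Those of rme-2, the yolk receptor of oocytes, stood at 26.2, 11.2 and 13.8 CPM in the mutant, against 36.6, 47.4 and 57.6 CPM in N2 (log2 fold change -1.46), and those of nos-1, a nanos gene, had a log2 fold change of -1.11. Of 20 genes of meiosis and chromosome segregation, 0 were DA in either direction by edgeR or by DESeq2 (median 0.13), and 9 had an unadjusted p under 0.05 by edgeR.

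Of 25 tested spermatogenesis genes (54 listed), siRNAs rose for 6 (24%, against 10.2% of all siRNAs) and fell for 0. The median log2 fold change was 1.84, and it depended on the filter. With a minimum count of 50, 7 were tested and 1 was higher (median 0.48). At 10 CPM, 6 were tested and 1 was higher (median 0.22). The 6 called higher in the main fit were R03D7.8, gsp-3, gsp-4, nspd-4, nspd-7 and spe-4, with log2 fold changes from 3.0 to 3.75. None of them lay outside the N2 range. For gsp-3, a sperm protein phosphatase gene, siRNAs stood at 0.331, 1.69 and 2.02 CPM in pup-1/-2(om129), against 0, 0.0742 and 0.705 CPM in N2, where replicate 1 was the highest. The same order held for spe-4, with 0.331, 4.86 and 3.2 CPM in the mutant, against 0, 0.158 and 2.82 CPM in N2. The count of higher members was 12 without mutant replicate 1 and 15 without N2 replicate 1, and 0 against N2 replicates 1 to 3 alone. The paralogues gsp-3 and gsp-4, and the nspd genes, are near-identical and may share reads. The siRNAs of msp-152, a major sperm protein gene, stood at 430.1, 325.3 and 323.3 CPM in the mutant, against 176.4, 277.3 and 321.4 CPM in N2, and did not pass the test (log2 fold change 0.46).

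Of 50 cytosolic ribosomal protein genes, siRNAs fell for 21 (42%, against 16.0% of all siRNAs), rose for 1 and were not DA for 28, with a median log2 fold change of -0.90, against -0.12 over all siRNAs. For 19 of the 21 the mutant libraries lay below all N2 libraries, as they did for 768 of all 1149 siRNAs called lower. The siRNAs of rps-16 stood at 12.9, 9.72 and 15 CPM in pup-1/-2(om129), against 43.9, 49.2 and 69.8 CPM in N2 (log2 fold change -2.04, edgeR adjusted p = 8.7e-09), and those of rpl-15 had a log2 fold change of -2.03. The exception was rla-0, the gene of an acidic stalk protein of the large subunit. Its siRNAs rose to 371.0, 157.6 and 149.4 CPM in the mutant, against 33.8, 61.6 and 71.6 CPM in N2 (log2 fold change 1.98). The summed level of the list was 1482, 1237 and 1297 CPM in the mutant, against 1790, 2116 and 2519 CPM in N2, without overlap. Between 18 and 24 members were called lower under the alternatives run. The study itself drew attention to ribosomal genes among the targets in these samples, so the list is not independent evidence of its direction.

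Of 33 mitochondrial ribosomal protein genes, siRNAs fell for 7 (21.2%, against 16.0% of all siRNAs) and rose for 0 (median -0.68). The falls were 12 without mutant replicate 1, 4 without mutant replicate 3, 11 with total scaling and 3 with factors of unwanted variation. The siRNAs of mrpl-49 stood at 9.77, 4.22 and 4.55 CPM in pup-1/-2(om129), against 17.1, 19.2 and 25 CPM in N2, a log2 fold change of -1.70. Of 24 respiratory chain genes, siRNAs fell for 4 and rose for 1 (16.7 and 4.17%, median -0.39), so the share lower was near the 16.0% of all siRNAs. Those of asg-2, a subunit of the ATP synthase, stood at 10.1, 11.8 and 12.3 CPM in the mutant, against 31.2, 39.4 and 43 CPM in N2 (log2 fold change -1.73). Those of asb-2, another subunit, had a log2 fold change of -2.45. Of 18 proteasome genes, 1 was higher (pas-5, 1.06) and 1 lower (rpt-6, -1.2), and of 36 tested chaperone genes, 1 was higher and 3 were lower (8.33%), shares under those of all siRNAs. Without mutant replicate 1 there were 0 higher in either list, and 3 proteasome genes lower. Without N2 replicate 5 or 6 or mutant replicate 2, 2 chaperone genes were higher. The siRNAs of the chaperonin gene cct-8 stood at 319.5, 260.3 and 267.5 CPM in the mutant, against 490.1, 540.0 and 1176 CPM in N2 (log2 fold change -1.23).

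Of 135 tested F-box genes, whose products recruit substrates to ubiquitin ligases, siRNAs fell for 61 (45.2%, against 16.0% of all siRNAs) and rose for 3 (1 without mutant replicate 3, 5 without mutant replicate 1 or N2 replicate 1), with a median log2 fold change of -1.2. Under the alternatives run, 35 to 78 were lower, with medians from -1.35 to -0.80. The low counts were 35 of 121 tested with the 9 libraries alone, 41 of 135 with a replicate block and 41 of 81 at 10 CPM. With factors 42 of 135 were lower, and with N2 replicates 1 to 3 42 of 131. The summed level of the F-box siRNAs was 8919, 9328 and 9209 CPM in pup-1/-2(om129), against 14225, 16055 and 23146 CPM in N2, without overlap. The siRNAs of fbxa-115 stood at 12.6, 9.51 and 8.93 CPM in the mutant, against 54.1, 82 and 110.0 CPM in N2 (log2 fold change -3.0, edgeR adjusted p = 4.4e-09). Those of fbxa-150 stood at 52.8, 34 and 33.5 CPM, against 178.3, 224.6 and 331.3 CPM in N2 (-2.53). The 3 F-box genes whose siRNAs rose were fbxa-75 (3.40), fbxa-182 (2.98) and fbxa-125 (1.55).

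MATH and BATH genes encode adaptors of cullin ubiquitin ligases. Of 35 tested, siRNAs fell for 14 (40%, against 16.0% of all siRNAs, and 11 to 16 under the alternatives). They rose for 1 (2.86%, against 10.2%, and 3 without mutant replicate 1), with a median of -0.86. Those of bath-10 stood at 55.5, 48 and 47.4 CPM in pup-1/-2(om129), against 110.2, 153.7 and 208.1 CPM in N2 (log2 fold change -1.62), whereas those of math-46 stood at 2.81, 5.28 and 3.71 CPM, against 0.26, 0.549 and 1.41 CPM in N2 (2.76). Of 78 tested nuclear hormone receptor genes, siRNAs fell for 28 (35.9%, against 16.0% of all siRNAs). The falls were 17 to 30 under the alternatives, the 17 among 36 tested at 10 CPM. The siRNAs rose for 4 (5.13%, against 10.2%, and 2 without mutant replicate 2), with a median of -0.75. Those of nhr-15 stood at 949.4, 973.8 and 961.2 CPM in the mutant, against 2073, 2740 and 3337 CPM in N2 (log2 fold change -1.49, edgeR adjusted p = 1.3e-07), and those of nhr-1 had a log2 fold change of -2.21. The largest rise was that of nhr-211, at 3.31, 5.07 and 5.9 CPM in the mutant, against 0, 0.073 and 0.587 CPM in N2. Members of these families resemble each other in sequence, and reads from similar stretches may be assigned to either gene.

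**Figure D3:**
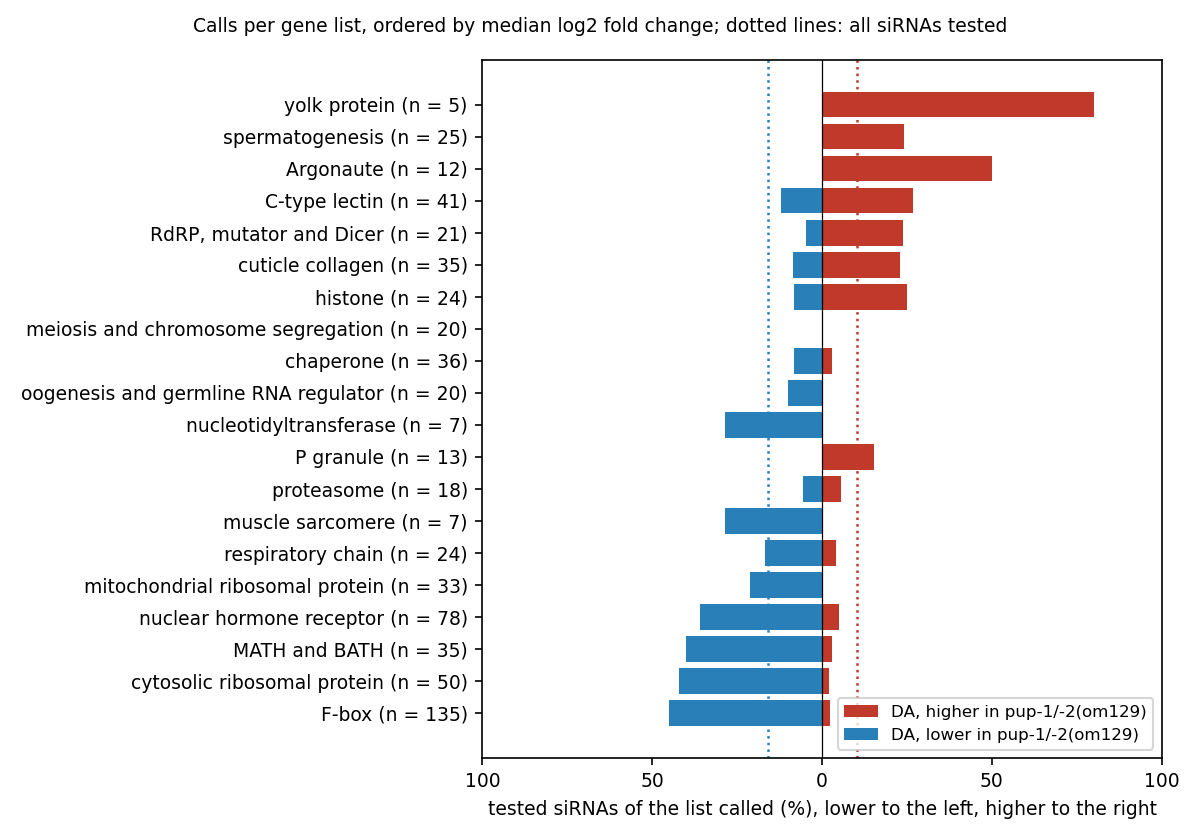
Share of tested siRNAs called higher (right, red) and lower (left, blue) in pup-1/-2(om129) against N2 for each gene list (%, x axis), with the number tested beside its name and the shares over all siRNAs, 10.2% higher and 16.0% lower, as dotted lines. F-box genes had 45.2% of their siRNAs called lower, cytosolic ribosomal protein genes 42%, and yolk protein genes 80% called higher.

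C-type lectin genes, many of which are known for expression in the intestine and in innate immunity, went both ways. Of 41 tested, siRNAs rose for 11 (26.8%, against 10.2% of all siRNAs) and fell for 5 (12.2%, against 16.0%), with a median of 0.52. The rises were 4 to 15 under the alternatives, and the falls 3 without mutant replicate 3. Those of clec-145 stood at 21.9, 23.4 and 13.8 CPM in pup-1/-2(om129), against 3.23, 4.56 and 5.2 CPM in N2 (log2 fold change 2.19), and those of clec-31 stood at 425.3, 225.2 and 214.9 CPM, against 460.3, 1101 and 2020 CPM in N2 (-1.96). The median of this list changed sign with the filter, and was -0.18 over the 19 members that reach 10 CPM in 3 libraries.

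Lists that stand for somatic tissues of adults were tested as well. The yolk protein (vitellogenin) genes are expressed in the intestine, and their siRNAs rose for 4 of 5 (3 to 5 under the alternatives) and fell for 0 (median 2.24). The share higher was 80%, against 10.2% of all siRNAs. Those of vit-6 stood at 57.9, 60.6 and 54.6 CPM in pup-1/-2(om129), against 2.49, 10.2 and 15.3 CPM in N2 (log2 fold change 2.57, edgeR adjusted p = 3.1e-05), and those of vit-2 at 26.2, 20.7 and 25.5 CPM, against 0.633, 3.92 and 8.9 CPM in N2 (2.37). Mutant libraries lay above all N2 libraries for the 4 genes, as they did for 505 of all 731 siRNAs called higher. The vitellogenin genes are similar in sequence and may share reads. Of 7 tested genes of the muscle sarcomere (19 listed), siRNAs rose for 0 and fell for 2 (28.6%, against 16.0% of all siRNAs). These were lev-11, the tropomyosin gene (log2 fold change -2.03), and unc-54, a myosin heavy chain gene (-2.64), and for both a mutant library overlapped N2. The call of lev-11 held under all 21 alternatives, whereas that of unc-54 was lost under 6 of 20, among them those without mutant replicate 1 or 2, with log2 fold changes from -4.0 to -0.89.

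The list of cuticle collagen and dpy genes had a median of 0.26 over 35 tested. Its siRNAs rose for 8 (22.9%, against 10.2% of all siRNAs). They fell for 3 (8.57%, against 16.0%), and for 5 without mutant replicate 1. Those of col-87 stood at 34.6, 77.3 and 85.1 CPM in pup-1/-2(om129), against 1.47, 2.52 and 4.75 CPM in N2 (log2 fold change 4.68), and those of col-85 at 16.4, 34.6 and 57.5 CPM, against 0.587, 1.89 and 2.82 CPM in N2 (4.35, edgeR adjusted p = 3.8e-08). Those of dpy-10, a collagen gene, fell with a log2 fold change of -3.19. The list was made by gene symbol, and dpy-26 (1.10), dpy-21 (1.09) and dpy-30 (-1.02) encode no collagens: the first pair act in X chromosome dosage compensation, and DPY-30 is a subunit of a histone methyltransferase complex. Of 24 tested histone genes (median 0.19), siRNAs rose for 6 (25%, against 10.2% of all siRNAs, and 1 to 11 under the alternatives). They fell for 2 (8.33%, against 16.0%), and for 4 without N2 replicate 5. Those of his-7 stood at 2.48, 9.29 and 9.78 CPM in the mutant, against 0, 0.341 and 0.705 CPM in N2 (log2 fold change 4.55), and those of the histone variant gene his-74 fell to 88.7, 76.5 and 84.8 CPM, against 141.9, 214.4 and 245.4 CPM in N2 (-1.29). Replication-dependent histone genes are near-identical copies, so that their reads cannot be assigned to 1 gene with certainty.

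The calls were spread over all 6 chromosomes but not evenly. Of 818 tested siRNAs of X-linked genes, 129 were higher (15.8%) and 220 lower (26.9%), against 10.2 and 16.0% of all siRNAs. On chromosome I, 10.7% of 1366 siRNAs were higher and 10.8% lower, and on chromosome III 8.8% of 1238 were higher and 11% lower. Chromosomes II and V had 18.6 and 19.8% lower, and chromosome IV 12.5%. The median log2 fold change was 0.00 on chromosome I, between -0.06 and -0.08 on III and IV, and between -0.20 and -0.23 on II, V and X. These shares are descriptions, since neighbouring genes are not independent.

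miRNAs are processed from hairpin precursors and bound by ALG-1, ALG-2 and ALG-5. Of 157 tested miRNAs, 26 were higher (16.6%) and 5 lower (3.18%) in pup-1/-2(om129), with a median log2 fold change of 0.56. The 26 calls rested on replicates 2 and 3. In replicate 1 none of the 26 exceeded every N2 library and only 4 exceeded the N2 median, whereas in replicates 2 and 3 it was 26 and 25 that exceeded every N2 library. The median log2 level of the 26 relative to the N2 mean was -1.11, 2.16 and 2.13 in replicates 1, 2 and 3, and that of all tested miRNAs was -0.99, 1.14 and 1.19, so the miRNA share of a library moved with these values. Whether that share accounts for the calls was not tested. The triple and quadruple mutants also carry om129. There the medians of the 26 relative to the N2 mean were -0.13 to 0.15 and -0.59 to -0.21. They were -0.15 to 0.48 in pup-1(tm1021) and 0.11 to 0.64 in pup-2(tm4344).

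The number of miRNA calls depended on this spread. Without mutant replicate 1, 51 miRNAs were higher and 2 lower. Without replicate 2 there were 7 higher and 3 lower, and without replicate 3 there were 7 higher and 2 lower. When miRNAs were scaled and fitted on their own, 6 were higher and 3 lower. With 6 factors of unwanted variation removed, the direction turned, with 2 higher and 16 lower. A fit of the 9 libraries alone called 1 in each direction.

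**Figure D4:**
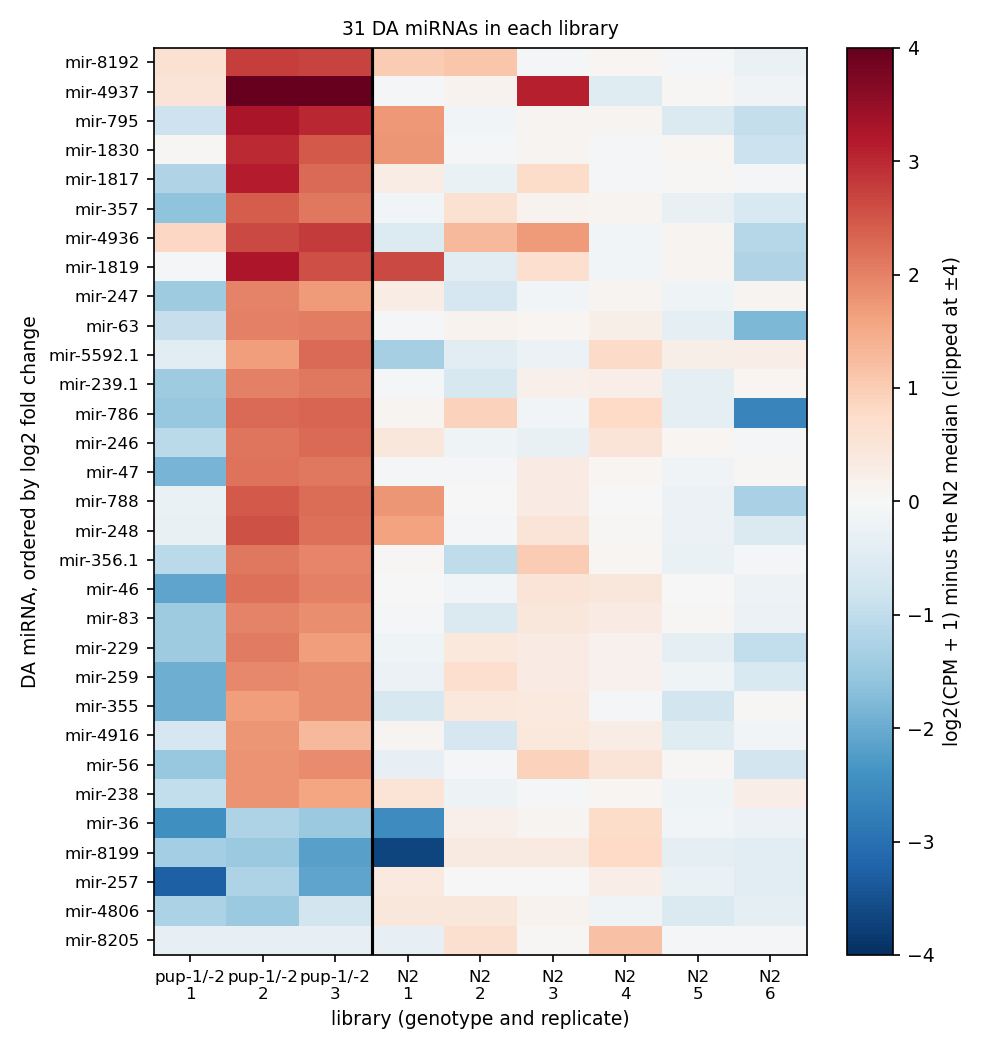
Levels of the 31 DA miRNAs (rows, ordered by log2 fold change) in each library (columns, pup-1/-2(om129) left of N2), as log2(CPM + 1) minus the N2 median, clipped at ±4. The 26 miRNAs called higher are red in mutant replicates 2 and 3, and in replicate 1 only 4 of them exceed the N2 median.

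The 5 largest miRNA rises were those of mir-8192, mir-4937, mir-795, mir-1830 and mir-1817, with log2 fold changes of 3.68, 3.12, 2.38, 2.27 and 2.18. The let-7 family member mir-795 (chromosome I, 12594569 to 12594657) stood at 12.3, 227.1 and 187.1 CPM in pup-1/-2(om129), against 11.2, 22.5 and 77.6 CPM in N2 (edgeR adjusted p = 0.00275). The miRNA mir-1817 stood at 2.81, 76 and 41.3 CPM, against 6.33, 7.8 and 13.5 CPM in N2, and mir-4937 at 1.49, 37 and 44.2 CPM, against 0.26, 0.761 and 14.2 CPM in N2. In these 3 the mutant replicate 1 lay within or below the N2 range. The same order held for mir-8192, at 0.828, 7.18 and 6.91 CPM in the mutant, against 0, 0.204 and 1.58 CPM in N2, and for mir-1830, at 3.15, 31.3 and 21.2 CPM, against 1.24, 3.06 and 12.7 CPM in N2. The remaining higher miRNAs were mir-46, mir-47, mir-56, mir-63, mir-83, mir-229, mir-238, mir-239.1, mir-246, mir-247, mir-248, mir-259, mir-355, mir-356.1, mir-357, mir-786, mir-788, mir-1819, mir-4916, mir-4936 and mir-5592.1, with log2 fold changes from 1.11 to 1.83. For 13 of the 26, mir-46, mir-47, mir-56, mir-83, mir-229, mir-238, mir-247, mir-259, mir-355, mir-356.1, mir-357, mir-786 and mir-1817, the sign turned negative with factors of unwanted variation. Of the 26, mir-8192 overlaps flcn-1, mir-1830 paic-1, mir-229 gcn-1, mir-357 symk-1 and mir-5592.1 aakb-1. Reads of miRNAs were counted on both strands, so reads against these genes may be included.

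The 5 miRNAs called lower were mir-257, mir-36, mir-8199, mir-4806 and mir-8205. The miRNA mir-257 (chromosome V, 17140668 to 17140769) fell to 3.31, 16.7 and 8.6 CPM in pup-1/-2(om129), against 30.1, 40.4 and 52.9 CPM in N2, a log2 fold change of -2.1 (standard error 0.34, edgeR adjusted p = 3.6e-05). All of its mutant libraries lay below all N2 libraries, and it kept its call under every alternative run. For mir-4806 this non-overlap was at 0.166, 0 and 0.674 CPM, against 0.891, 1.81 and 2.85 CPM in N2 (-2.53), with 5 reads in all mutant libraries together. No read of mir-8205 was counted in the mutant, against 0, 0.258 and 1.82 CPM in N2. Mutant and N2 libraries overlapped for mir-36, at 507.3, 1188 and 999.8 CPM in the mutant, against 482.3, 2781 and 4660 CPM in N2 (log2 fold change -1.59), and for mir-8199 (-1.70). By position, mir-36 overlaps the gene Y62F5A.9 and mir-4806 the gene ras-1.

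The miRNAs are grouped next by families that share a seed. The mir-35 family, known as a maternal and embryonic family required for embryogenesis, had 8 members tested. Of these, 1 fell (mir-36, 12.5% of the family, against 3.18% of all miRNAs) and 0 rose. All 8 log2 fold changes were negative (median -0.94, against 0.56 over all miRNAs). The falls were 3 without N2 replicate 1 and 0 without N2 replicate 4 or mutant replicate 1 or 3, and mir-36 lost its call under 7 of 21 alternatives. Its most abundant member in N2, mir-35, stood at 21259, 13533 and 16128 CPM in pup-1/-2(om129), against 9991, 31859 and 44506 CPM in N2 (log2 fold change -0.76, edgeR adjusted p = 0.23). The let-7 family, which controls developmental timing, had 1 higher member (mir-795) of 7 (14.3%, against 16.6% of all miRNAs) and a median of 0.82. The count was 5 without N2 replicate 1 (median 1.39), 4 against N2 replicates 4 to 6, 3 without mutant replicate 1, 2 without N2 replicate 4 and 0 with factors (median 0.03). Its member mir-48 stood at 23533, 63605 and 57195 CPM, against 4378, 15452 and 98648 CPM in N2, and let-7 itself at 1131, 5820 and 5884 CPM, against 871.9, 1953 and 9765 CPM in N2. Neither passed the test (log2 fold changes 0.82 and 0.51), and N2 replicate 1 was the highest of the N2 libraries for mir-48.

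Of the mir-64 family, mir-63 and mir-229 were higher among 5 members (40%, median 1.25). Of the mir-51 family, mir-56 was higher among 6 (16.7%, near the 16.6% of all miRNAs, median 0.83). Without mutant replicate 2 or 3 neither family had a higher member, and without mutant replicate 1 they had 3 and 2. The mir-56 call was also lost without N2 replicate 1, 2, 4, 5 or 6. In the mir-58 family 0 of 6, in the lin-4 family 0 of 2 and in the mir-2 family 0 of 3 were DA by edgeR, 0 had an unadjusted p under 0.05, and DESeq2 called 0. The most abundant of all in N2, mir-71, which is known for extending adult lifespan, stood at 34786, 194597 and 154273 CPM in pup-1/-2(om129), against 39993, 64996 and 103408 CPM in N2 (log2 fold change 0.87, edgeR adjusted p = 0.2). The muscle miRNA mir-1 stood at 13910, 8952 and 9632 CPM, against 3100, 12243 and 91642 CPM in N2, with N2 replicate 1 the highest, and did not pass the test (log2 fold change -1.13).

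piRNAs, the 21U RNAs bound by PRG-1, are transcribed in the germline from single small genes, most of them on chromosome IV. Of 2302 tested, 77 were higher and 50 lower in pup-1/-2(om129), which together is 5.52%, and the median log2 fold change was -0.15. Of the 77, 27, 66 and 70 exceeded every N2 library in replicates 1, 2 and 3, and only 37 of the 127 DA piRNAs lay outside the N2 range in all 3 (19 higher, 18 lower). The counts moved with the N2 libraries used. They were 299 higher and 74 lower without N2 replicate 1, 313 and 128 against N2 replicates 4 to 6, and 14 and 7 when piRNAs were scaled and fitted on their own. Without mutant replicate 1 they were 176 higher and 90 lower.

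Among DA piRNAs outside the N2 range and at 10 CPM or more in the higher genotype, 21ur-10687 (chromosome II, 13246773 to 13246793) showed the largest fall, to 0.662, 1.69 and 2.87 CPM in pup-1/-2(om129), against 19.6, 40.4 and 61.1 CPM in N2 (log2 fold change -4.47, edgeR adjusted p = 5.3e-08). Its near neighbour 21ur-10492 (chromosome II, 13247294 to 13247314) fell to 5.96, 22.4 and 18.9 CPM, against 98.5, 142.9 and 335.7 CPM in N2 (-3.45). The other falls named by the rule were 21ur-15630 (-3.72) and 21ur-12557 (-2.0). The former overlaps the gene Y38F2AL.12 and the latter F40D4.13. These 4 lie outside the 2 piRNA clusters of chromosome IV, unlike most of the 50 lower piRNAs.

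The largest rises within the same limits were 21ur-9061 (log2 fold change 3.34), 21ur-3338 (2.80), 21ur-12761 (2.46) and 21ur-5397 (1.98), all in the distal cluster of chromosome IV. The first of them overlaps the gene Y105C5A.15. As piRNAs were counted on both strands, reads against an overlapping gene may be included. The piRNA 21ur-3338 (chromosome IV, 13600849 to 13600869), which overlaps 21ur-2046, stood at 50.7, 49.9 and 75 CPM in pup-1/-2(om129), against 5.28, 8.58 and 11.7 CPM in N2 (standard error 0.32, edgeR adjusted p = 3.8e-07). By position, 60 of 1963 tested piRNAs were higher and 38 lower in the distal cluster (13.5 to 17.2 Mb), 9 of 237 were higher and 3 lower in the proximal cluster (4.5 to 7.0 Mb), and 7 of 58 were higher and 6 lower on other chromosomes. All 8 named piRNAs kept their call under each alternative run. The 3 most abundant piRNAs of N2, 21ur-13367, 21ur-11000 and 21ur-14852, did not pass the test (log2 fold changes -0.42, -0.15 and 0.03).

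The double mutant was next set against the pup-1(tm1021) single mutant. Their strains differ in pup-2 but also in the pup-1 allele, om129 against tm1021. Loss of pup-2 cannot be told apart here from a difference of allele or strain. Against that strain, 397 sRNAs were DA in pup-1/-2(om129) (4.12% of those tested), 321 of them higher and 76 lower. Without replicate 1, 2 or 3 of the double mutant there were 974, 232 and 212, and without pup-1(tm1021) replicate 2 or 3 there were 196 and 152. With factors of unwanted variation, 309 were higher and 133 lower. With library totals as the only scaling, which lowered the median log2 fold change over all sRNAs to -0.23, against -0.05 with TMM, 179 were higher and 72 lower. Relative to the N2 mean, the siRNAs called higher in the double mutant had median log2 levels of 0.76 to 0.99 in pup-1(tm1021), 0.03 to 0.08 in pup-2(tm4344), 1.00 to 1.12 in the triple and 1.2 to 1.24 in the quadruple mutant. Those called lower had -1.34 to -1.04 in pup-1(tm1021) and -0.12 to 0.10 in pup-2(tm4344). These comparisons share the N2 libraries.

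The interaction of both losses asks whether the double mutant differs from the sum of the log2 changes in the single mutants. As both single mutants carry other alleles than om129, differences of allele or strain enter this term too. It was DA for 171 sRNAs (1.77%), of which 124 were above that sum and 47 below. The count was 415 without replicate 1 of the double mutant, 333 and 324 without N2 replicate 1 or 2, 87 without pup-2(tm4344) replicate 3 and 89 without pup-1(tm1021) replicate 3. With factors of unwanted variation it was 270 above and 253 below, and with each class fitted on its own 268 above and 43 below.

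The clearest of the siRNAs lower than in pup-1(tm1021) was Y57A10C.10, which headed the falls against N2. It stood at 1.82, 1.48 and 1.35 CPM in pup-1/-2(om129), against 39, 50.4 and 69.1 CPM in pup-1(tm1021) (lowest, median and highest), 52.2, 105.6 and 118.5 CPM in pup-2(tm4344), and 13.4, 105.8 and 152.6 CPM in N2. The log2 fold change against pup-1(tm1021) was -5.09 (edgeR adjusted p = 2.1e-05), and the interaction was -4.96 (edgeR adjusted p = 0.00033). The triple and quadruple mutants, which carry the same om129 allele, stood at 0.63 to 2.01 and 1.6 to 2.12 CPM. All 9 libraries with om129 thus lay below all libraries of the single mutants and of N2.

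The siRNAs of xdh-1, a xanthine dehydrogenase gene, were high in the pup-1(tm1021) single mutant alone among these genotypes. They stood at 0, 0.634 and 2.02 CPM in pup-1/-2(om129), against 42.8, 44 and 74.2 CPM in pup-1(tm1021), a log2 fold change of -5.89 (edgeR adjusted p = 2.3e-05). The siRNAs of F26F2.8 stood at 1.82, 3.17 and 0.843 CPM in the double mutant, against 22.2, 24.8 and 26.8 CPM in pup-1(tm1021) (-3.67). Those of rgs-3, a regulator of G protein signalling, had a log2 fold change of -4.24 that rests on a single high pup-1(tm1021) library (1.85, 6.7 and 47.1 CPM).

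Among siRNAs higher than in pup-1(tm1021), ZK262.8 (WBGene00013953; chromosome V, 18438381 to 18440195) stood at 399.5, 701.5 and 800.1 CPM in pup-1/-2(om129), against 0.543, 0.62 and 0.98 CPM in pup-1(tm1021). It was at 0.522 to 2.66 CPM in pup-2(tm4344) and at 976.3, 1153 and 2321 CPM in N2, so all 3 double mutant libraries lay below N2 and far above both single mutants. Against N2 it was DA lower (log2 fold change -1.07, edgeR adjusted p = 0.00449), a call lost without N2 replicate 1 or 4 or mutant replicate 1. The log2 fold change against pup-1(tm1021) was 9.76 (edgeR adjusted p = 1.3e-11). The overlapping gene ZK262.9 stood at 12.6, 12 and 8.6 CPM in the double mutant, at 0 to 0.163 CPM in pup-1(tm1021), at 0 in pup-2(tm4344) and at 20.9 to 105.8 CPM in N2, and was DA lower than N2 (log2 fold change -1.96). The interactions of this pair (19.00 and 18.57) are set by libraries at or near 0 and depend on the prior count.

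The siRNAs of Y36E3A.2 stood at 149.7, 704.1 and 604.9 CPM in pup-1/-2(om129), against 4.34, 6.95 and 8.49 CPM in pup-1(tm1021) (log2 fold change 6.12) and 25.4 to 194.1 CPM in N2. Those of C54F6.3 stood at 15.9, 149.8 and 139.9 CPM in the double mutant, against 0.62, 2.5 and 2.94 CPM in pup-1(tm1021) (5.44) and 1.61 to 4.68 CPM in N2. Replicate 1 was the lowest double mutant library for both, and it lay above all pup-1(tm1021) libraries. The siRNAs of pup-3 did not differ between the double mutant and pup-1(tm1021) past the test (log2 fold change 0.33, edgeR adjusted p = 0.469). Among the Argonaute genes, alg-5 stood at 102.9 to 127.3 CPM in pup-1(tm1021) and 61.1 to 69.9 CPM in pup-2(tm4344), below all 3 double mutant libraries, and its interaction was 1.01 (edgeR adjusted p = 0.0086).

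**Figure D5:**
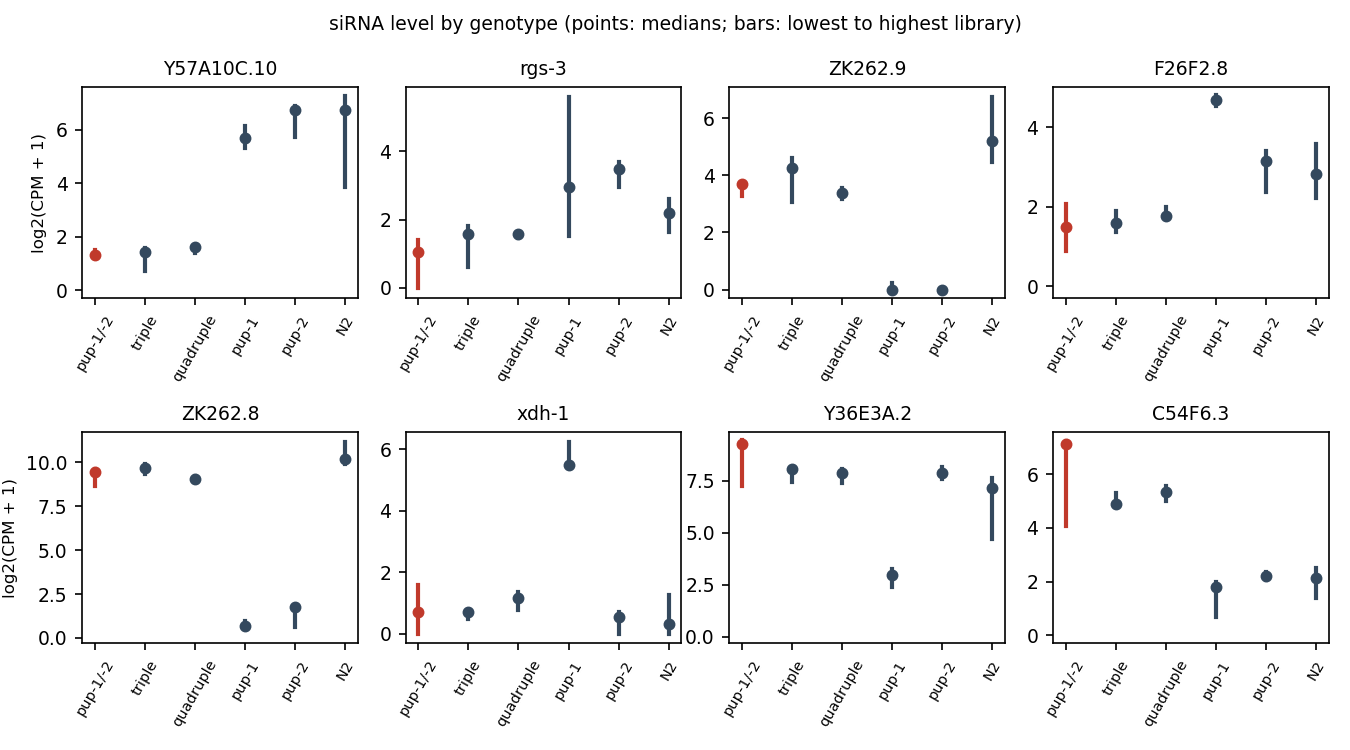
Levels of the siRNAs with the largest differences between pup-1/-2(om129) and pup-1(tm1021), as log2(CPM + 1) (y axis), in pup-1/-2(om129), the triple mutant (om129 with pup-3(tm5089)), the quadruple mutant (the triple with pup-4(om141) added), pup-1(tm1021), pup-2(tm4344) and N2. Points are medians and bars run from the lowest to the highest library; Y57A10C.10 is low in the 3 genotypes with om129 and ZK262.8 in the single mutants.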

How the data were processed

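Adapters were trimmed (cutadapt) and reads mapped (HISAT2) by the authors, whose counting used smalldisco. They deposited raw counts per sRNA and library, without normalization, on both strands of miRNAs and piRNAs and antisense to coding sequence for siRNAs. Names and positions came from the Ensembl annotation of WBcel235, which is not the release the authors used, and 20147 of 20150 IDs were found. There were 0 per-sample columns left unused. The main tool was edgeR 4.0.16 under R 4.3.3, and DESeq2 1.42.0 served as an alternative. Filtering used filterByExpr with a minimum count of 10, scaling TMM, and 1 quasi-likelihood fit held all 27 libraries with genotype as the term. DA meant an absolute log2 fold change over 1 and a Benjamini-Hochberg adjusted p under 0.05. The floor of 3 counts was 0.497 to 0.634 CPM in pup-1/-2(om129) and 0.219 to 2.12 CPM in N2, and covers counting error only. Steps were tested on simulated data.

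The study's factors of unwanted variation (EDASeq and RUVSeq) were replaced by TMM, with 6 factors from replicate groups as an alternative. Named sRNAs followed a rule: the pup genes, the 8 largest siRNA and 4 largest piRNA rises and falls outside the N2 range at 10 CPM or more, every DA miRNA, up to 2 DA members per direction and the most abundant member of each list, the 3 most abundant sRNAs of each class, and the 4 largest rises and falls against pup-1(tm1021). Other sRNAs were named only once their values were known. The comparison and the lists were chosen with earlier results of these data known. A planned search of piRNA upstream motifs was not run. The 1 listed target of ERGO-1 siRNAs, F55C9.3, did not pass the test (log2 fold change 0.08). The most abundant siRNAs of N2, those of F33H2.8 (0.75), seu-1 (-0.78) and F42G4.6 (-0.87), were not DA.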

Additional observations from a re-analysis of the deposited data

Results flagged for a closer look

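In 28 cases a single N2 library lay far from the other 5, by Dixon's ratio of its gap to the range of the 6. For normally distributed values, chance alone gives such a gap in about 1 of 20 groups. That rate need not hold for CPM, some of them near 0, and the named sRNAs share the same 6 libraries. Of 146 named sRNAs tested, N2 replicate 1 was the far library at the high end for 21 and at the low end for 1, replicate 3 at the high end for 3 and replicate 4 at the low end for 2. The piRNA share of N2 replicate 1 (5.72%) was the remaining case. Replicate 1 was highest for the piRNAs 21ur-13367 (4012 CPM), 21ur-11000 (2779 CPM) and 21ur-10492 (335.7 CPM), and for the miRNAs mir-48 (98648 CPM), mir-1 (91642 CPM), mir-248 (320.2 CPM), mir-788 (119.2 CPM), mir-795 (77.6 CPM), mir-1819 (50.8 CPM) and mir-1830 (12.7 CPM). It was also highest for the siRNAs of fbxb-98 (5924 CPM), ZK262.8 (2321 CPM), R06C1.4 (1652 CPM), cct-8 (1176 CPM), ZK262.9 (105.8 CPM), rps-16 (69.8 CPM), his-18 (4.23 CPM), R03D7.8, math-46 and xdh-1 (1.41 CPM each) and gsp-3 (0.705 CPM), and lowest for cox-5A (14.1 CPM). N2 replicate 3 was highest for mir-356.1 (17.5 CPM), mir-4937 (14.2 CPM) and T05A8.1 (0.293 CPM), and replicate 4 lowest for hcp-3 (648.0 CPM) and rpn-1 (266.8 CPM).

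The double mutant differed from the sum of both single mutants for 15 of the named sRNAs (edgeR's interaction term). Beside Y57A10C.10 (-4.96, adjusted p = 0.00033), ZK262.8 (19.00, adjusted p = 3.8e-15), ZK262.9 (18.57, adjusted p = 3.7e-08) and alg-5 (1.01, adjusted p = 0.0086), these were, by edgeR, 21ur-3338 (3.42, adjusted p = 0.00098), mir-5592.1 (4.17, adjusted p = 0.025), pap-2 (-1.74, adjusted p = 0.0086), asg-2 (1.39, adjusted p = 0.0218), col-85 (2.68, adjusted p = 0.0462) and btb-11 (-2.36, adjusted p = 0.0138). The other 5 were Y36E3A.2 (5.21), C54F6.3 (5.35), xdh-1 (-6.31), rgs-3 (-5.61) and F26F2.8 (-3.86). These 5, and also Y57A10C.10, ZK262.8 and ZK262.9, were chosen for their difference from pup-1(tm1021). That difference is part of the interaction term, so their interactions are not independent of the choice. The piRNA 21ur-3338 stood at 50.7, 49.9 and 75 CPM in pup-1/-2(om129), at 3.15 to 17.4 CPM in pup-1(tm1021), at 4.22 to 6.07 CPM in pup-2(tm4344) and at 5.28 to 11.7 CPM in N2.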

How the results depend on the processing

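Of the 116 named sRNAs that were DA, 103 kept their direction under every alternative and 65 their call, among them 56 of 77 siRNAs. With 6 factors of unwanted variation 14 miRNAs reversed: mir-46 (-0.73), mir-47 (-0.40), mir-56 (-0.37), mir-83 (-0.32), mir-229 (-0.24), mir-238 (-0.09), mir-247 (-0.87), mir-259 (-0.78), mir-355 (-0.41), mir-356.1 (-0.25), mir-357 (-0.33), mir-786 (-0.23), mir-1817 (-0.01) and mir-250 (-1.11). The cause was not tested.

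Against N2 (2039 DA), the 9 libraries alone gave 1289 (505 higher, 784 lower; piRNAs 16 and 13, miRNAs 1 and 1) and called fewer with fewer libraries. Higher sRNAs numbered 544 (486 siRNAs) at 10 CPM and 1322 against N2 replicates 4 to 6. For piRNAs, higher and lower, a minimum count of 50 gave 34 and 20, 10 CPM 31 and 19, each class alone 14 and 7, N2 replicates 1 to 3 35 and 24, replicates 4 to 6 313 and 128, and factors 86 lower. For miRNAs, total scaling gave 16 higher, factors 2 and 16, each class alone 6 and 3, N2 replicates 1 to 3 5 and 3, replicates 4 to 6 42 higher, and 3 were lower at a minimum count of 50, at 10 CPM and with no filter. Leaving out 1 library gave 1719 to 2685 DA, 684 to 1363 higher, 1035 to 1372 lower, 631 to 1026 siRNAs higher, 39 to 299 piRNAs higher and 29 to 90 lower, and 7 to 51 miRNAs higher and 2 to 7 lower.

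The replicate numbers did not pair the libraries: deviations of same-numbered libraries correlated at -0.221, 0.00493 and -0.0173. With a replicate block there were 1666 DA sRNAs (660 higher, 1006 lower), with 37 piRNAs higher and 29 lower and 4 miRNAs higher and 3 lower.

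Against pup-1(tm1021) (397 DA, 321 higher, 76 lower), total scaling gave 251 (179 higher), DESeq2 646 (563 higher), 10 CPM 259 (40 lower), no filter 28 lower, each class alone 495 higher and factors 133 lower. Leaving out 1 library gave 152 to 974, 115 to 734 higher and 20 to 240 lower. For the interaction (171, 124 above, 47 below), factors gave 523 (270, 253), DESeq2 489 (413, 76), each class alone 311 (268 above) and no filter 25 below. Leaving out 1 library gave 87 to 415, 56 to 287 above and 20 to 140 below. Depth limited low siRNAs: a floor of 2.12 CPM in N2 replicate 1 lies above many of the levels named here.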
